A study of Mus musculus with 38 samples.

Results

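LAP2B binding to the genome was compared with background in naive mouse embryonic stem cells (naive mESCs) of wild type (WT) genotype. The comparison took the 6 libraries that carry these labels out of the 38 samples of the series, 3 made with the LAP2B antibody and 3 IGG controls. The study asked how chromatin is held at the nuclear periphery, and it also mapped LAP2B in mutant cells and in epiblast-like cells, none of which enter the ratios here. All 6 libraries came from mESCs grown without serum or feeders in N2B27 medium with the inhibitors CHIR-99021 and PD0325901 and with LIF, and collected for CUT&RUN after 48 hours. In CUT&RUN a nuclease joined to protein A is brought to an antibody and releases the DNA around it. The LAP2B libraries used a rabbit polyclonal antibody, and the IGG libraries used a rabbit anti-mouse secondary antibody with no primary antibody to LAP2B, run in parallel. Every replicate received yeast DNA as a spike-in. The WT cells were a single line, which the study's karyotyping found to hold subpopulations that had lost the Y chromosome or had gained chromosomes 6 and 8, so spreads and p-values describe libraries of that line and not lines or embryos. DNA was measured and not RNA, so no expressed marker was at hand to check the naive label.

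LAP2B is the inner nuclear membrane isoform of lamina-associated polypeptide 2, made by the gene Tmpo, and it binds both lamins and chromatin. Long stretches of the genome that rest against the nuclear lamina are called lamina-associated domains. They are known to be poor in genes and in GC, rich in LINE elements and mostly silent, while the gene-rich, SINE-rich and GC-rich remainder of the genome lies in the nuclear interior. A control antibody reports where the nuclease cuts without being directed, which is known to favour open chromatin.

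The authors' spike-in scaled values were higher with LAP2B than with IGG. The mean over genes was 10.7, 16.1 and 11.7 in LAP2B replicates 1, 2 and 3, and 2.47, 1.78 and 2.70 in IGG replicates 1, 2 and 3. Every LAP2B library stood above every IGG library, but the spike-in constant is not stated for IGG and the tables were scaled separately, so this gap is given as a description and fits on that scale serve only as alternatives. To compare where signal lay, each library was divided by its own median gene. This is called the relative value, and a ratio above 0 on the log2 scale then means that a gene carried more of the LAP2B signal than of the IGG signal, not that it alone was bound. Summed over genes, LAP2B libraries held 19264866 to 28566810 reads and IGG libraries 12028659 to 45689196, and the median gene held 44 to 72 and 36 to 135 reads. Across genes, Spearman's rho was 0.944 to 0.960 between LAP2B libraries, 0.953 to 0.974 between IGG libraries and 0.871 to 0.919 between the antibodies. LAP2B replicate 2 was the least like IGG, at 0.871 to 0.879. A gene's value is a sum over the 1 kb bins it touches, so gene length is common to all libraries and can raise every rho.

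Of 70381 genes tested, 16196 were higher with LAP2B (23%) and 13883 were lower (19.7%) at an adjusted p under 0.05 in limma with Benjamini-Hochberg adjustment, and the median log2 ratio over all genes was 0.044. A log2 ratio past 1 was reached by 4404 of the genes called higher (6.26%) and by 3787 of those called lower (5.38%). The 3 LAP2B libraries lay wholly above the 3 IGG libraries in 19910 genes (28.3%) and wholly below in 16890 (24%). Both conditions, the call and the lack of overlap, were met by 15386 (21.9%) and 12882 (18.3%). Directions are relative to the median gene. On the deposited spike-in scale 67805 genes were called higher and 8 lower, since the median gene itself was then 1.94 higher on the log2 scale, and with division by the mean gene the split was 9584 higher to 20787 lower, the median gene then standing at -0.19.

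The genes at the upper end were of mixed function. They were picked by log2 ratio among protein-coding genes of at least 10 kb, no closer than 1 Mb to each other. Only genes that were called and had no overlap between the antibodies were taken. Csn1s1, which encodes a casein of milk, lies on chromosome 5 (GRCm39 chr5:87814067-87830437, plus strand). Its relative value was 6.14, 9.14 and 6.69 in LAP2B replicates 1 to 3 and 3.06, 1.94 and 2.11 in IGG replicates 1 to 3. LAP2B replicate 2 was the highest, and each LAP2B library exceeded the highest IGG library, as the choice of genes requires. The log2 ratio was 1.59 ± 0.18 (SE, adjusted p = 1.27e-07, limma, n = 3 and 3). Gabra6, a subunit of the GABA-A receptor of cerebellar granule neurons (chr11:42197264-42211910, minus strand), had relative values of 4.65, 6.82 and 5.04 with LAP2B and of 1.22, 1.75 and 2.50 with IGG. Its log2 ratio was 1.58 ± 0.21 (adjusted p = 9.70e-07). Cr2, the complement receptor of B cells, had a narrow IGG group, with 24.0, 29.4 and 22.5 in LAP2B and 8.58, 8.34 and 8.28 in IGG libraries, a log2 ratio of 1.57 ± 0.12. The other 7 were Klrb1f, a lectin-like receptor of natural killer cells, the olfactory receptors Or4c114 and Or6c1, the zinc finger gene Zfp1005, the mucin gene Muc15, the cell division gene Depdc1a and Tcstv6, with log2 ratios of 1.42 to 1.51. All 10 had 0.46 to 1.03 of the median gene's level per 1 kb bin with IGG and 1.32 to 3.18 with LAP2B. LMNB1, the lamin mapped in 3 other libraries of the same cells, gave 1.53 to 4.28.

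Among genes picked in the same way, the lowest was Catsper4, a subunit of the calcium channel of sperm (chr4:133939279-133954733, minus strand). Its relative value was 1.67, 1.95 and 1.69 in LAP2B and 6.94, 5.62 and 6.00 in IGG libraries. The log2 ratio was -1.75 ± 0.18 (adjusted p = 2.31e-08, limma). Fahd1, a mitochondrial decarboxylase (chr17:25055468-25069338, minus strand), followed at -1.73 ± 0.35 (adjusted p = 2.43e-04), from 0.361, 0.0909 and 0.192 with LAP2B and 0.667, 0.896 and 1.12 with IGG. The groups did not overlap, as the choice of genes requires, but Fahd1 rested on 4 to 26 reads in each LAP2B library. With IGG, Fahd1, Cuta and Eif5a had 0.298, 0.684 and 0.428 of the median gene's level per bin, and the rest of the lowest genes at least 1.1. Gene bounds came from a later GENCODE release than the authors name. Whether these genes reach 10 kb in the authors' release was not tested. The other 8 were Cuta, BC005624, Mbd3 of the NuRD complex, the kinase gene Mast3, the splicing factor gene Sf1, St6galnac4, Coq4 of ubiquinone synthesis and the translation factor gene Eif5a, at -1.62 to -1.49. Mast3 carried the most reads of these, 246 to 466 with LAP2B and 791 to 2305 with IGG, and fell by 1.55 ± 0.14 on the log2 scale. Eif5a held 8 reads in LAP2B replicate 2 and lost its call when low genes were not filtered out (adjusted p = 0.0966, limma).

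**Figure D1:**
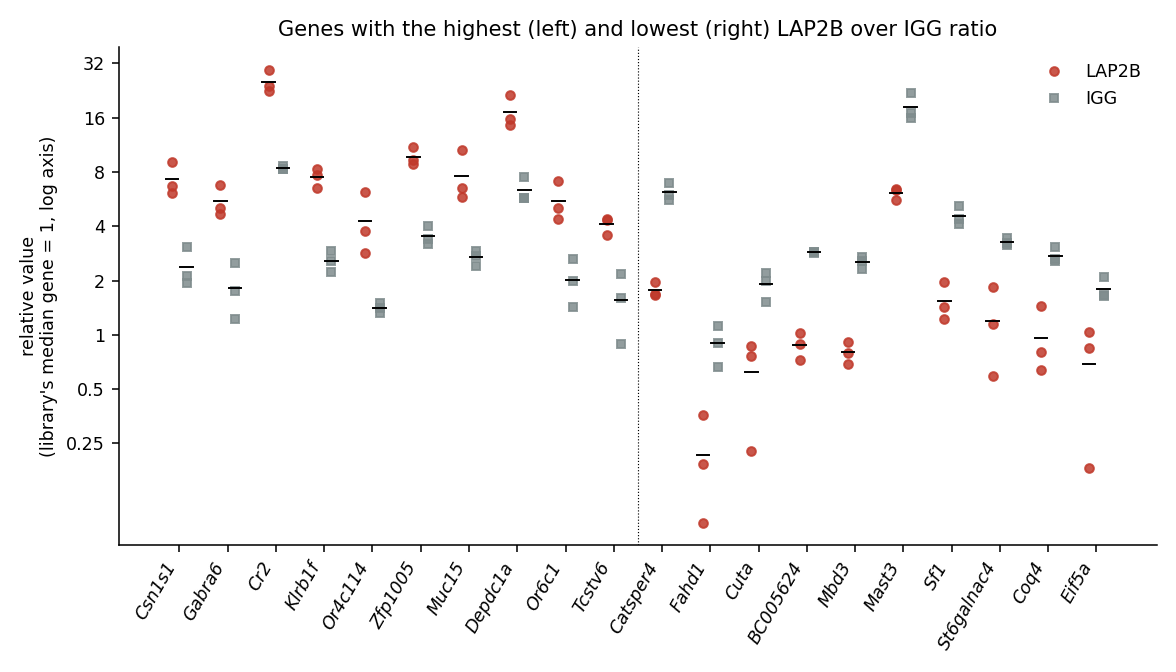
Relative value (library's median gene = 1, log axis) of the 10 genes with the highest and the 10 with the lowest LAP2B over IGG ratio, one point per library and a bar at the mean of 3. LAP2B points lie above all IGG points of the same gene on the left and below them on the right, as the choice of genes requires.

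The stretch just before the start of the first 2 genes at each end is printed to show their base composition. Each run is the 250 bases before the annotated gene start (GENCODE M39, read from GRCm39), 5′ to 3′ on the gene's strand, with CG dinucleotides in capitals. They span chr5:87813817-87814066 for Csn1s1, chr11:42211911-42212160 for Gabra6, chr4:133954734-133954983 for Catsper4 and chr17:25069339-25069588 for Fahd1.
Csn1s1: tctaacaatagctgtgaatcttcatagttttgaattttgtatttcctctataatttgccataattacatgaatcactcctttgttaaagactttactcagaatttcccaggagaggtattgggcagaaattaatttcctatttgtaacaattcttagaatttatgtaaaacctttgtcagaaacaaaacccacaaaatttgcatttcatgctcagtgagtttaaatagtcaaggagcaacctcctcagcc
Gabra6: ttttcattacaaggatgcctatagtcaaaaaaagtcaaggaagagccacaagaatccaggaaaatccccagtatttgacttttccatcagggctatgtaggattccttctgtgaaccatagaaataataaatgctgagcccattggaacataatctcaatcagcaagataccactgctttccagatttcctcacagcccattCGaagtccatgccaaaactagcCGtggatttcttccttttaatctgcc
Catsper4: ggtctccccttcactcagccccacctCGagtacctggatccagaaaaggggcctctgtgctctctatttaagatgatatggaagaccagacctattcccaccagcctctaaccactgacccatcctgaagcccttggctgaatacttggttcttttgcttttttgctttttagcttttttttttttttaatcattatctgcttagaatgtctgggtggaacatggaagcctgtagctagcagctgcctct
Fahd1: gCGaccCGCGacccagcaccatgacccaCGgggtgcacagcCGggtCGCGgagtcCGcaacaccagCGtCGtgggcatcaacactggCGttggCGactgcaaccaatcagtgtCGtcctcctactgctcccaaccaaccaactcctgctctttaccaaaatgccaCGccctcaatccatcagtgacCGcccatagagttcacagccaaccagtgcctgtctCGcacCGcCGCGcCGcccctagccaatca
The runs did not part the ends cleanly. The run of Csn1s1 held 0 CG and 32.8% GC and that of Gabra6 2 CG and 40.8% GC. Catsper4 had 1 CG and 46% GC, and Fahd1 20 CG and 62.4% GC. Over all 70311 tested genes with such a window, 19.3% held at least 10 CG, against 13.6% of those called higher and 36.7% of those called lower. Among protein-coding genes the shares were 36.5% of all, 24.8% of those higher and 47.9% of those lower. The letters CG were counted as they stand, and they read the same on both strands.

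Receptor genes of smell and pheromone sensing were mostly higher with LAP2B. These receptors lie in clusters of near-copies and are best known from sensory neurons. Of 133 class I olfactory receptor genes tested (137 in the table), all on 1 chromosome, 108 (81.2%) were higher with LAP2B and 0 lower in limma. Of all genes tested, 23% were higher and 19.7% lower. The class I genes had a median log2 ratio of 0.99. The median level per bin of these genes was 1.75, 2.29 and 1.72 in LAP2B and 1.05, 0.798 and 0.897 in IGG replicates 1 to 3, so no library of the groups overlapped. Or52l1 had the highest ratio of the list, 1.60 ± 0.18, with relative values of 5.26, 6.20 and 5.31 against 2.11, 1.79 and 1.47. Of 1016 class II genes, which lie on 18 chromosomes, 661 (65.1%) were higher and 21 (2.07%) lower. Their log2 ratios had a median of 0.80 and ranged from -1.09 to 1.96. Their median GC content was 36.8%, and that of class I genes 38.1%. Of all genes in the lowest of 10 classes by GC, 62% were higher. The count of lower class II genes was 12 without LAP2B replicate 1, 9 without IGG replicate 2 and 9 without IGG replicate 3. The lowest of them, Or13c7d, had relative values of 0.194, 0.0909 and 0.308 with LAP2B and 0.389, 0.593 and 0.556 with IGG, and its call was lost without LAP2B replicate 2 (adjusted p = 0.0825), without IGG replicate 2 (0.0681) or without IGG replicate 3 (0.0512).

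Pheromone receptors were called in the same direction. Vomeronasal type 2 receptors, which read peptide signals, were higher in 106 of 112 genes (94.6%, beside 23% of all genes) with 0 lower (median 0.90). Vmn2r16, the highest, reached 1.32 ± 0.13 from 18.1, 20.9 and 15.9 against 7.19, 6.67 and 7.81. Vomeronasal type 1 receptors were higher in 88 of 149 (59.1%) with 0 lower (median 0.60). Their median GC content was 38.1%, and 62% of all genes in the lowest of 10 classes by GC were higher. The table held 231 type 1 receptors, so 82 fell under the filter on low values, and the list's counts describe the 149 that passed. That filter used the deposited values, which were higher with LAP2B than with IGG. Genes low with LAP2B were more likely to fall under it, which may have held down counts of lower genes. Bitter taste receptors were higher in 18 of 34 (52.9%) with 0 lower (median 0.82). The count of 18 was 10 without LAP2B replicate 2 and also 10 without IGG replicate 2. At an unadjusted p under 0.05 none of these 4 families with a count of 0 had a lower gene, and edgeR and DESeq2 on recovered reads called 0 lower in each of them too. Without the filter on low genes the class II count became 434 higher to 8 lower and the bitter taste count 6 to 0. Reads of near-identical receptor copies can be split between them, so single members are less certain than the lists.

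Several clusters of immune and secreted proteins had shares of higher genes above the 23% of all genes. The Klr genes of the natural killer complex, lectin-like receptors on chromosome 6, were higher in 29 of 31 (median 1.01). The only member called lower was Klrg2, at -0.55 ± 0.20, which lies on the same chromosome away from that complex (chr6 from 38595375, where Klrb1f starts at 129022864). Klrg2 lost its call without LAP2B replicate 1 (adjusted p = 0.0545), LAP2B replicate 2 (0.0836), IGG replicate 2 (0.23) or IGG replicate 3 (0.0503). Immunoglobulin V segments, the gene pieces from which antibodies are assembled, were higher in 197 of 327 and lower in 0 (median 0.90), with the highest median level per bin of all lists, 2.62 ± 0.35 with LAP2B against 1.21 ± 0.16 with IGG (mean ± SD of 3 library medians). T cell receptor V segments were higher in 36 of 157, or 22.9%, which is near the 23% of all genes, and lower in 0 (median 0.52). Their median length was 524 bp, and of all genes in the class of 365 to 834 bp 14.7% were higher and 6.16% lower. Pramel genes, a family expanded in germ cells and early embryos, were higher in 42 of 57 and lower in 0 (median 0.85), and Serpin A and B protease inhibitors in 43 of 58 with 0 lower (median 0.68). For the lists with a count of 0 here, limma at an unadjusted p under 0.05, edgeR and DESeq2 also gave 0 lower. Segments and small genes hold few reads, and the immunoglobulin count fell to 128 without the filter on low genes.

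Other clustered families were split. Defensins were higher in 30 of 85 and lower in 4 (median 0.50). Cyp2, Cyp3 and Cyp4 genes, which oxidize steroids and foreign compounds, were higher in 49 of 109 and lower in 17 (median 0.37). Within them Cyp4a29-ps1 stood at 1.49 ± 0.22 and Cyp2d12 at -1.42 ± 0.28. Ugt genes, which attach glucuronic acid, parted by cluster: all 17 tested were called, 10 higher and 7 lower. Ugt2b38 on chromosome 5 was the highest at 1.39 ± 0.18 and Ugt1a5 on chromosome 1 the lowest at -0.55 ± 0.16. Ugt1 genes share most of their length, so their 7 calls do not count as 7 separate measurements. Keratin-associated proteins were called higher in 14 and lower in 5 of 98 (14.3% and 5.1%, both below the 23% and 19.7% of all genes), with a median of 0.10 and -0.18 relative to the shift of the median gene on the spike-in scale. Their count was 5 to 8 higher without LAP2B replicate 1, LAP2B replicate 2, IGG replicate 2 or IGG replicate 3. The median length of this list was 809 bp, and of all genes in the class of 365 to 834 bp 14.7% were higher and 6.16% lower. The Rhox homeobox genes of the X chromosome were called higher in 3 of 41 (7.32%, below the 23% of all genes and the 32.9% of genes on X) and lower in 0, at a median of 0.11, and without IGG replicate 1 in 1.

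Very long neuronal genes were all called higher. These genes for synaptic and adhesion proteins are used mainly in the nervous system. All 12 of the list were called higher and had no overlap between the antibodies, with log2 ratios of 0.69 (Csmd1) to 1.18 (Fgf14) and a median of 0.92. Their median GC content was 37.7%, and of all genes in the longest of 10 classes by length 51.1% were higher, and of those in the lowest of 10 by GC 62%. Fgf14, a channel modulator of neurons, had relative values of 260, 355 and 246 with LAP2B and 141, 113 and 124 with IGG. Dlg2, a scaffold of the synapse, had 674, 840 and 630 against 398, 324 and 338. Macrod2 had 709, 881 and 671 against 416, 333 and 356. In all 3 the lowest LAP2B library was above the highest IGG library, and LAP2B replicate 2 was the highest. Because a value sums over the bins of a gene, these sums are large, while the median level per bin was 1.61 ± 0.23 with LAP2B and 0.874 ± 0.09 with IGG. When low genes were kept in the fit, 8 of the 12 lost their call at the same log2 ratio, at adjusted p of 0.0599 (Pcdh15) to 0.187 (Csmd1), and the cause was not tested.

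**Figure D2:**
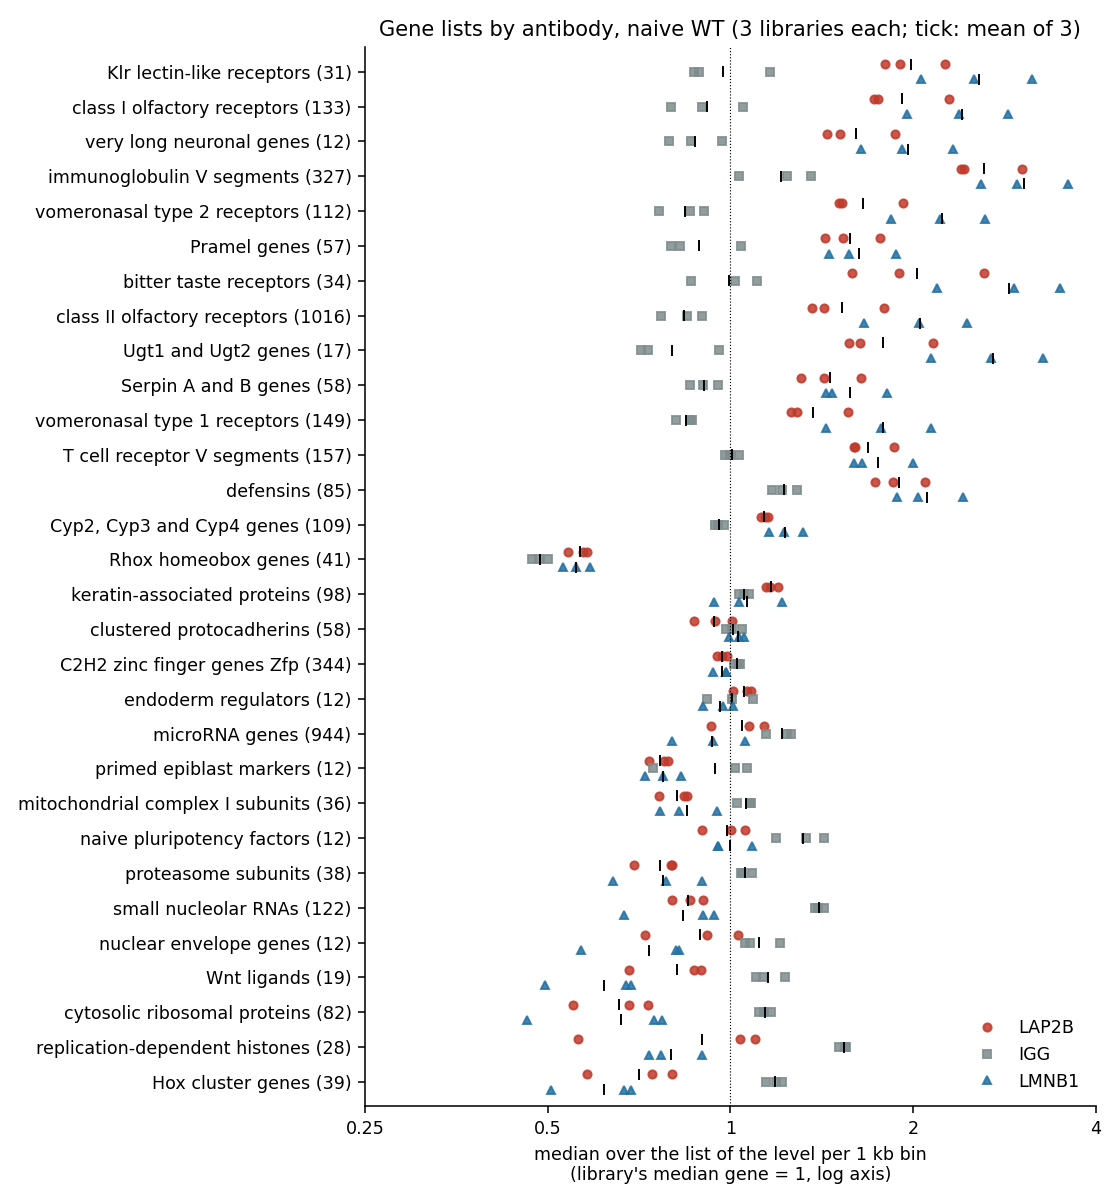
Median level per 1 kb bin of each gene list in each library (library's median gene = 1, log axis), ordered by median log2 ratio, with the number of genes tested in brackets, for LAP2B, IGG and LMNB1. For the Klr genes the LAP2B points sit between 1.80 and 2.26 and the IGG points between 0.871 and 1.16, while for the Hox genes they sit between 0.581 and 0.800 and between 1.14 and 1.22.

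Lists of genes used in every cell were read beside the protein-coding genes, of which 34.2% were lower and 27.2% higher. Cytosolic ribosomal proteins were lower with LAP2B in 43 of 82 (52.4%) and higher in 0 (median -0.71). Their median level per bin was 0.680, 0.551 and 0.731 in LAP2B and 1.12, 1.17 and 1.13 in IGG libraries, without overlap. Rpl10a had the lowest ratio, -1.40 ± 0.29, and Rps23 the highest, 0.63 ± 0.37, which was not called (adjusted p = 0.163). Without LAP2B replicate 2 the count was 28, and without IGG replicate 2 also 28. Proteasome subunits were lower in 20 (52.6%) and higher in 6 of 38. The interferon-induced subunit Psmb9 was lowest at -1.53 ± 0.28, while Psmd14, a deubiquitinase of the lid, was highest at 1.06 ± 0.11, from 15.6 ± 0.41 with IGG to 32.7 ± 3.56 with LAP2B. Subunits of mitochondrial complex I were lower in 11 and higher in 2 of 36, at 30.6% near the share of protein-coding genes, down to -1.85 ± 0.27 for Ndufs8, and the lower count was 7 without IGG replicate 2. Replication-dependent histones were lower in 14 and higher in 0 of the 28 that passed the filter, of 73 in the table, and in 9 without LAP2B replicate 2 or without IGG replicate 2. For ribosomal proteins and histones, limma at an unadjusted p under 0.05, edgeR and DESeq2 also gave 0 higher.

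Small RNA genes were called in both directions. Small nucleolar RNAs with a Snora or Snord symbol were lower in 25 and higher in 2 of 122 (median -0.51), or 20.5% lower beside 19.7% of all genes, with 10 to 16 lower without LAP2B replicate 1, LAP2B replicate 2, IGG replicate 2 or IGG replicate 3. Of all 1118 tested genes annotated as snoRNA 13.1% were higher and 4.47% lower (median 0.25), and of 883 snRNA genes 11.1% and 4.87% (median 0.19), all below the 23% and 19.7% of all genes. MicroRNA genes were lower in 101 and higher in 66 of 944, both below the background of 19.7% and 23%, and in 54 to 62 without LAP2B replicate 2, IGG replicate 2 or IGG replicate 3. Many of these lie within a bin of a host gene and share its reads. Short genes were called less often than others. In the shortest of 10 classes by length (up to 365 bp) 5.72% were lower and 11.2% higher. Median lengths were 80 bp in the microRNA list (10.7% lower and 6.99% higher) and 91.5 bp in the Snora and Snord list. Beside genes of like length, both lists thus had a larger share of lower genes.

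Among developmental genes the Hox and Wnt lists were mostly lower, while protocadherins and zinc finger genes were called both ways. The Hox genes, which set position along the body axis, were lower in 24 of 39 (61.5%, beside 34.2% of protein-coding genes) and higher in 0 (median -0.78). All 39 had a log2 ratio below 0, from -1.58 (Hoxd10) to -0.18 (Hoxd1, which stood at 0.033 without LAP2B replicate 1). No Hox gene was higher at an unadjusted p under 0.05 in limma or in edgeR or DESeq2. Their median level per bin was 0.743, 0.581 and 0.800 with LAP2B and 1.14, 1.22 and 1.19 with IGG. Without the filter on low genes 14 were lower. Wnt ligands were lower in 12 and higher in 2 of 19 (63.2% and 10.5%), with Wnt6 at -1.28 ± 0.21 and Wnt2 at 0.64 ± 0.14. Clustered protocadherins, adhesion proteins that tell neurons apart, were higher in 15 and lower in 20 of 58 (25.9% and 34.5%). By symbol, Pcdha genes were higher in 12 of 13 (median 0.32) and Pcdhga genes lower in 12 of 12 (median -0.47). Pcdhb genes were higher in 1 and lower in 0 of 22. Genes of each group lie on 1 chromosome, so these calls may not be separate measurements. The median of all 58 was near 0, and it turned below 0 with division by the mean gene (-0.057), TMM factors (-0.047) or values per bin (-0.0085). Without IGG replicate 1 or IGG replicate 2, 8 of them were higher. C2H2 zinc finger genes named Zfp were higher in 88 and lower in 118 of 344, at shares of 25.6% and 34.3%, near the 27.2% and 34.2% of protein-coding genes. Their median was -0.15, and 0.038 relative to the shift of the median gene on the spike-in scale. Zfp1005 and Zfp383 stood at their ends, at 1.44 ± 0.15 and -1.40 ± 0.25.

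Genes active in these cells were described by the 12 naive pluripotency factors, of which 6 were called lower (50%, beside 34.2% of protein-coding genes) and 0 higher. The core factors Sox2 (-1.65 ± 0.33) and Pou5f1 (-1.04 ± 0.28) were lower, and so were Klf2 (-1.40 ± 0.25), Tbx3 (-1.04 ± 0.18), Esrrb (-0.77 ± 0.11) and Klf4 (-0.64 ± 0.25). Sox2 had relative values of 0.167, 0.136 and 0.346 with LAP2B and 0.806, 0.933 and 0.833 with IGG. Esrrb had 22.7, 21.6 and 25.9 against 39.3, 42.0 and 38.4. In both every LAP2B library lay below every IGG library. The call of Klf4 was lost without LAP2B replicate 3 (adjusted p = 0.18) and without each of the IGG libraries (0.0612, 0.0712 and 0.127 for replicates 1, 2 and 3). Nanog was at 0.22 ± 0.17, Zfp42 at 0.20 ± 0.16 and Nr0b1 at 0.73 ± 0.32 (adjusted p = 0.0644), none of them called. Nr0b1 was the only factor higher at an unadjusted p under 0.05 in limma, and edgeR and DESeq2 called 0 higher.

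Genes of later lineages were called in both directions, as protein-coding genes in general were (27.2% higher and 34.2% lower). Of 12 primed epiblast markers (16.7% higher and 33.3% lower), Cdh2 (0.66 ± 0.11) and Fgf5 (0.52 ± 0.16) were higher, and Nodal (-1.37 ± 0.29), Pou3f1 (-1.24 ± 0.32), Dnmt3a (-0.66 ± 0.12) and Zic2 (-0.59 ± 0.23) were lower. Fgf5 lost its call without IGG replicate 3 (adjusted p = 0.0558), and Zic2 lost it without any library but LAP2B replicate 1 (0.0501 to 0.112). Of 12 endoderm regulators (41.7% and 25%), Foxa2 (0.83 ± 0.21), Sox17 (0.68 ± 0.19), Cubn (0.59 ± 0.11), Dab2 (0.39 ± 0.11) and Lama1 (0.27 ± 0.11) were higher and Gata4 (-0.81 ± 0.15), Pdgfra (-0.67 ± 0.14) and Col4a1 (-0.52 ± 0.12) lower. Lama1 was not called by edgeR (adjusted p = 0.0948) or DESeq2 (0.065), with TMM factors (0.0743), or without LAP2B replicate 1 (0.136), IGG replicate 2 (0.092) or IGG replicate 3 (0.165).

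Of 12 genes for nuclear envelope proteins, Syne1 was higher (0.50 ± 0.10) and Lemd2 (-1.48 ± 0.22), Sun2 (-0.79 ± 0.19), Emd (-0.75 ± 0.28), Lmna (-0.74 ± 0.19), Lmnb2 (-0.67 ± 0.20) and Sun1 (-0.40 ± 0.13) were lower. The shares were 8.33% higher and 50% lower, beside 27.2% and 34.2% of protein-coding genes. Tmpo itself, the gene of LAP2B, had relative values of 9.90, 11.7 and 8.98 with LAP2B and 9.36, 8.30 and 7.18 with IGG. The groups overlapped, and the log2 ratio of 0.30 ± 0.14 was not called (adjusted p = 0.0867), though it was without LAP2B replicate 3 (0.0443) or IGG replicate 1 (0.0401). Lbr, the lamin B receptor gene, was at -0.37 ± 0.16 (adjusted p = 0.0559) and was called lower by edgeR (0.0235) and DESeq2 (0.0247), with division by the mean gene (0.0339), with TMM factors (0.03) and without LAP2B replicate 3 (0.0217) or IGG replicate 1 (0.0263). Without IGG replicate 2 only 3 of the 12 were lower. Emd lost its call without LAP2B replicate 1 (adjusted p = 0.0939), LAP2B replicate 3 (0.0552), IGG replicate 2 (0.0523) or IGG replicate 3 (0.16). Lmnb2 lost it without LAP2B replicate 2 (0.0944) or IGG replicate 2 (0.0638), and Sun1 without LAP2B replicate 1 (0.0635), IGG replicate 2 (0.0554) or IGG replicate 3 (0.0667).

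Families made from the letters of the gene symbol, with no list behind them, were also ranked, and some at the ends repeat genes of the lists above. Symbols with very short letter roots, such as Or of olfactory receptors, were left out, and so were Gm and Rik names. Of 310 such families of at least 10 tested genes, 103 had a median log2 ratio above 0. The 310 include 379 genes named only by an Ensembl identifier, which were counted as a family. The 10 highest were Klra (1.02), Ighv (1.02), Ifi (1.01), Ighd (0.98), Slco (0.96), Aadacl (0.96), Lce (0.95), Sprr (0.94), Esp (0.92) and Skint (0.91). Klra encodes the Ly49 receptors of natural killer cells, Lce and Sprr proteins of the cornified skin, Slco organic anion transporters and Esp pheromone peptides. The 10 lowest were Hoxb (-1.03), Lsm (-0.88), Oas (-0.79), Hoxa (-0.79), Cbx (-0.78), Psmb (-0.72), Man (-0.72), Lcn (-0.71), Brd (-0.70) and Trp (-0.69). Lsm encodes parts of RNA processing complexes, Cbx and Brd readers of histone marks and Oas sensors of double-stranded RNA. Lce and Ighv genes had a median GC content of 48.1% and 47.4%, against 45.3% over all genes tested. The rest of the 10 highest families had 34.4% to 43.9%. GC content was that of the gene body, while signal came from whole 1 kb bins. Members of a family such as Klra, Lce or Oas lie on 1 chromosome, while Lsm genes lie on 8.

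The ratio followed base composition and gene density. Genes were put in 10 equal classes by the GC content of the gene body. In the class with the least GC (up to 38.6%), 62% were higher and 1.11% lower with a median log2 ratio of 0.75, and in the class with the most (from 53.4%) 5.39% were higher and 34.7% lower with a median of -0.49. The antibodies moved in opposite directions. From class 1 to class 9 of 10 by GC, the median level per bin went from 1.43 to 0.881 with LAP2B and from 0.813 to 1.22 with IGG, and in class 10 both were above class 9, at 0.973 and 1.37. Spearman's rho of the log2 ratio with GC was -0.52 across genes, and with the number of protein-coding genes within 500 kb on either side it was -0.47. The class of 10 with the fewest such neighbours (0 to 1, ties split between classes) had a median of 0.63, and the class with the most (35 to 74) had -0.56. Genes are not independent points, since neighbours share domains and bins. As a value per library, the log2 ratio of the mean level per bin in the lowest of 4 equal classes by GC (17578 genes up to 41.6%) to that in the highest (from 49.4%) was 0.174, 0.464 and 0.126 in LAP2B and -0.599, -0.720 and -0.579 in IGG replicates 1 to 3. Every LAP2B library was above 0 and every IGG library below it. The difference was 0.89, with a two-sided exact permutation p = 0.1, the smallest that 3 against 3 allow (0.1 after adjustment over 2 contrasts). The part of base composition in the cutting or amplification of these libraries was not tested.

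Within classes of like GC, the ratio was higher where LMNB1 was higher. LMNB1 level per bin, from 3 libraries outside the comparison, had a Spearman's rho of 0.76 with the log2 ratio over all genes tested. Among the class with the least GC, the median log2 ratio went from 0.033 in the lowest of 4 equal LMNB1 classes to 0.84 in the highest. Among the class with the most GC it went from -0.78 to 0.53, where 31.8% of 2670 genes were called higher and 2.1% lower. Genes in the lowest of 10 classes by LMNB1 were lower in 53% and higher in 1.54%, and those in the highest were higher in 69.1% and lower in 0.398%. The IGG level per bin varied little across the 10 classes by LMNB1, between 0.954 and 1.19, while LAP2B went from 0.555 to 2.32.

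**Figure D3:**
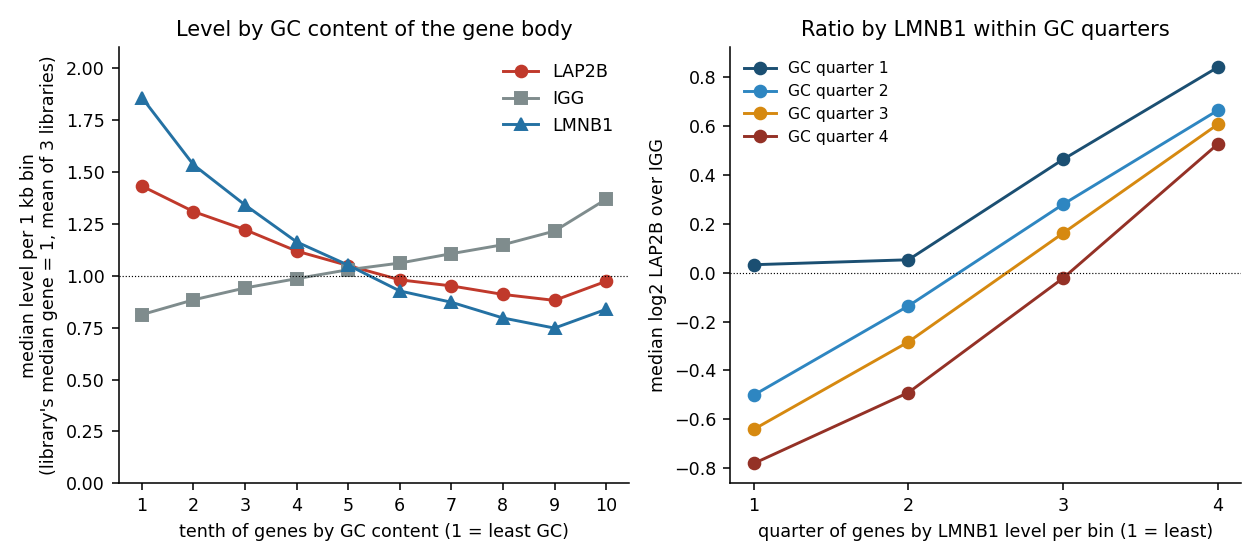
Left, median level per 1 kb bin (library's median gene = 1) of each antibody in 10 equal classes of genes by GC content of the gene body. LAP2B and LMNB1 go down and IGG goes up from class 1 to class 9. Right, median log2 LAP2B over IGG ratio by class of LMNB1 level, with a line for each of 4 classes by GC. All lines end above where they begin, from -0.78 to 0.53 in the class with the most GC.

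Neighbouring genes had like ratios over long distances. Between genes of at least 10 kb that share no bin, Pearson's r of the log2 ratios was 0.88 at gaps under 100 kb (46111 pairs), 0.73 at 300 to 1000 kb, 0.47 at 1000 to 3000 kb and 0.17 at 3000 to 10000 kb. The share of pairs with the same sign went from 88.4% to 55.7%. Among chromosomes, 11 had the lowest median ratio (-0.36, 34.5% lower) and X the highest (0.44, 32.9% higher and 2.8% lower). Chromosome 19 was at -0.20 and chromosomes 1 and 3 at 0.24 and 0.23. Levels per bin on X (0.709 with LAP2B, 0.491 with IGG) and on Y (0.420 and 0.313) were below those of every autosome with both antibodies. Chromosomes 8 (1.44 and 1.52) and 6 (1.33 and 1.14) had the highest levels with both, though chromosome 11 had 1.13 with IGG. The study describes the cells as XY, with WT subpopulations that had lost Y or gained chromosomes 6 and 8. The part of chromosome copy number in these levels was not tested. Beside the 23% higher and 19.7% lower of all genes, protein-coding genes had 27.2% and 34.2%, and processed pseudogenes 17.4% and 2.93%.

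Transposable element (TE) families were compared by the mean over their copies, each library divided by its median family. Of 1225 families, 304 were higher with LAP2B (24.8%) and 308 lower (25.1%) in limma at an adjusted p under 0.05, and 303 (24.7%) and 308 of these had no overlap between the antibodies. These directions are relative to the median family. Relative to the median gene the median family itself was 0.38 higher, and 1120 families were called higher and 9 lower. SINEs, short elements that gather in gene-rich DNA, were lower in 33 of 34 families and higher in 0 (also 0 at an unadjusted p under 0.05), with a median of -0.28 that became 0.10 relative to the median gene. The exception was AmnSINE1 at -0.025 (adjusted p = 0.274). B2_Mm2 had relative family means of 0.763, 0.713 and 0.798 with LAP2B and 1.01, 1.05 and 1.03 with IGG. B2_Mm1a had 0.761, 0.706 and 0.804 against 1.18, 1.14 and 1.12, a log2 ratio of -0.54 ± 0.05 that was -0.16 relative to the median gene. In neither family did the antibodies overlap, which the choice of B2_Mm1a among the lowest families required. The 15 families of the Alu group, which hold the B1 elements of mice, had a median of -0.34 (0.036 relative to the median gene), and ancient MIR families -0.18 (0.20).

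LINE-1 families, grouped by name, differed in direction relative to the median family, and a link with age was not tested. Relative to the median gene, 147 of 149 L1 families had a ratio above 0. The Lx families, old rodent elements, were higher in 24 of 25 (96%, beside 24.8% of all families) with a median of 0.28. The L1Md families, which include the youngest mouse elements, were higher in 20 of 25 (80%) with a median of 0.19. The L1M and HAL1 families, shared across mammals, were lower in 45 and higher in 7 of 89 (50.6% and 7.87%, beside 25.1% and 24.8%). Their median of -0.094 was 0.28 relative to the median gene. No Lx or L1Md family was lower, at an unadjusted p under 0.05 either. Lx had relative family means of 1.46, 1.57 and 1.43 with LAP2B and 1.22, 1.11 and 1.14 with IGG, a log2 ratio of 0.34 ± 0.05 (adjusted p = 0.00257, limma). The young L1MdTf_I (0.13 ± 0.06) and L1MdA_I (0.016 ± 0.080) were not called. L1MdA_I had 3.86, 3.62 and 4.05 with LAP2B and 4.26, 3.51 and 3.67 with IGG, which overlapped, and its ratio turned to -0.021, -0.040 and -0.0085 without LAP2B replicate 3, IGG replicate 2 or IGG replicate 3. It was 0.43 relative to the median gene, and 0.22 and not called over the median copy (limma adjusted p = 0.087). Without the 1% of copies with the most IGG signal it was 0.13, but removing copies by their IGG signal tends to raise the ratio. LAP2B exceeded IGG on 62.9% of L1MdA_I copies. L1MdTf_I was called without LAP2B replicate 2 (0.18, adjusted p = 0.0489). Per library, the log2 ratio of the mean over 149 L1 families to that over 34 SINE families was 0.569, 0.662 and 0.543 in LAP2B, 0.235, 0.142 and 0.191 in IGG, and 0.812, 0.646 and 0.681 in LMNB1 replicates 1 to 3. All LAP2B libraries stood above all IGG libraries, by 0.40 on average (two-sided exact permutation p = 0.1, the smallest possible, and 0.1 after adjustment). This contrast is a ratio within a library and does not depend on the scaling of libraries.

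**Figure D4:**
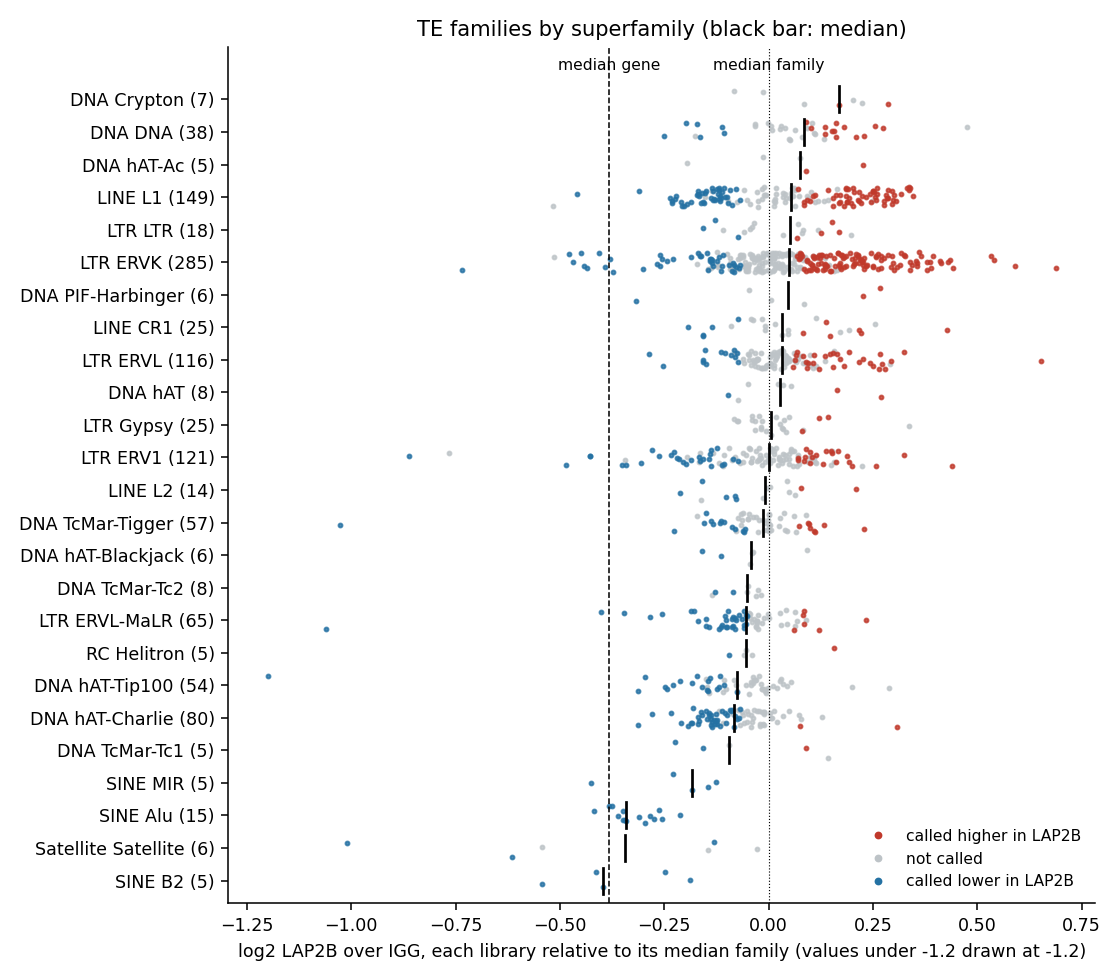
Log2 LAP2B over IGG ratio of each TE family (each library relative to its median family), by superfamily of at least 5 families, with the number of families in brackets and a black bar at the median. The medians of the Alu and B2 superfamilies, at -0.34 and -0.40, lie near the dashed line that marks the median gene, and ERVK families reach up to 0.69 and L1 families up to 0.35.

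Endogenous retroviruses of the ERVK group gave the highest ratios among families of at least 100 copies that were called without overlap. The first were the long terminal repeats RLTR13F (0.59 ± 0.04), RLTR13E (0.54 ± 0.05) and RLTR13D6 (0.53 ± 0.05). RLTR13F had relative family means of 2.56, 2.40 and 2.54 with LAP2B and 1.58, 1.64 and 1.67 with IGG. The lack of overlap was set by the choice of families, and a wide gap between the groups also follows from ranking them by log2 ratio. Of 23 RLTR13 families, 20 were higher and 1 lower, and of 13 RLTR9 families all 13 were higher, with medians of 0.27 and 0.34. Over the median copy RLTR13F was at 0.28 and not called (adjusted p = 0.0814), RLTR13E at 0.29 (0.0369) and RLTR13D6 at 0.45 (0.0301), and 9 RLTR13 and 6 RLTR9 families were higher. Of 25 IAP families, which include the most mobile retroviruses of the mouse, 7 were higher and 8 lower (28% and 32%, near the 24.8% and 25.1% of all families), and over the median copy 0 and 3. IAPEz-int, the internal part of IAP, fell by 0.43 ± 0.10 on the log2 scale, from 2.63, 2.74 and 2.84 with IGG to 2.05, 1.70 and 2.28 with LAP2B, and it was at -0.033 relative to the median gene. MERVL-int, a retrovirus of the early embryo, was at -0.15 ± 0.05 (adjusted p = 0.0359), 0.25 relative to the median gene and 0.060 by the median over copies, and lost its call without LAP2B replicate 1 or any of the IGG libraries (adjusted p 0.0661 to 0.0883). The MaLR families were lower in 34 and higher in 6 of 65, and hAT-Charlie DNA elements in 41 and 2 of 80. Over the median copy these counts were 6 and 1, and 8 and 0, and relative to the median gene 63 of 65 and 80 of 80 had a ratio above 0.

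The 3 lowest ratios among families of at least 100 copies lay in families whose IGG signal sat on few copies. FordPrefect, a DNA element of 270 copies, had relative family means of 1.38, 1.39 and 1.53 with LAP2B and 16.1, 7.33 and 8.32 with IGG, a log2 ratio of -2.71 ± 0.28. The 1% of copies with the most IGG signal, 3 copies, held 90.7% of the family's IGG signal and 28.2% of its LAP2B signal. Without them the log2 ratio of the means was 0.062, and with the median over copies in place of the mean it was 0.068 (adjusted p = 0.516). Removing copies by their IGG signal tends to raise the ratio, while the median over copies does not rest on that choice. LMNB1 gave 1.33 for this family, near LAP2B. MTC-int was alike, with 1.16, 1.17 and 1.17 against 3.59, 2.09 and 2.19, and 15 of its 1517 copies held 61.1% of the IGG signal. Its log2 ratio of -1.06 became 0.098 without those copies and 0.11 over the median copy. RLTR49 went from -0.74 to -0.064 and -0.032 by the same steps. TE tables had no blacklisted regions removed, and the part of such regions in these copies was not tested.

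Of the other 9 lowest families some kept a low ratio over the median copy and some did not. RMER16C went from -0.47 to 0.0082 (adjusted p = 0.97), RLTR27 from -0.45 to -0.021 (0.828), L1MEg from -0.46 to -0.13 (0.339) and IAPEY3C_LTR from -0.48 to -0.14 (0.132), so their calls were lost. ZP3AR, a satellite, was at -0.61 ± 0.07 by the mean and -0.71 by the median over copies, LAP2B exceeded IGG on 16.2% of its 2586 copies, and its top 1% held 2.84% of the IGG signal. B2_Mm1a was at -0.46 by the median over copies. Over all families, 96 were higher and 90 lower with the median over copies, against 304 and 308 with the mean. Of the 34 SINE families 32 were lower by the median, of the 25 Lx families 13 and of the 25 L1Md families 16 were higher, and of the 89 L1M and HAL1 families 17 were lower and 1 higher. The major satellite GSAT_MM of pericentromeric heterochromatin, with 51 annotated copies, was at -1.01 ± 0.26 (adjusted p = 0.0206), from 760, 634 and 1006 with LAP2B and 1524, 1419 and 1828 with IGG. One copy held 54.8% of its IGG signal and 48.7% of its LAP2B signal, and without that copy the log2 ratio was -0.81. That copy was chosen by its IGG signal, and its removal tends to raise the ratio. Over the median copy GSAT_MM was at -0.45 and not called (adjusted p = 0.102). It lost its call without LAP2B replicate 1 (adjusted p = 0.0714), LAP2B replicate 2 (0.0719), IGG replicate 1 (0.0673) or IGG replicate 3 (0.0749). Reads of near-identical copies cannot be placed on one of them, and for satellites the annotated copies stand for far longer arrays.

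**Figure D5:**
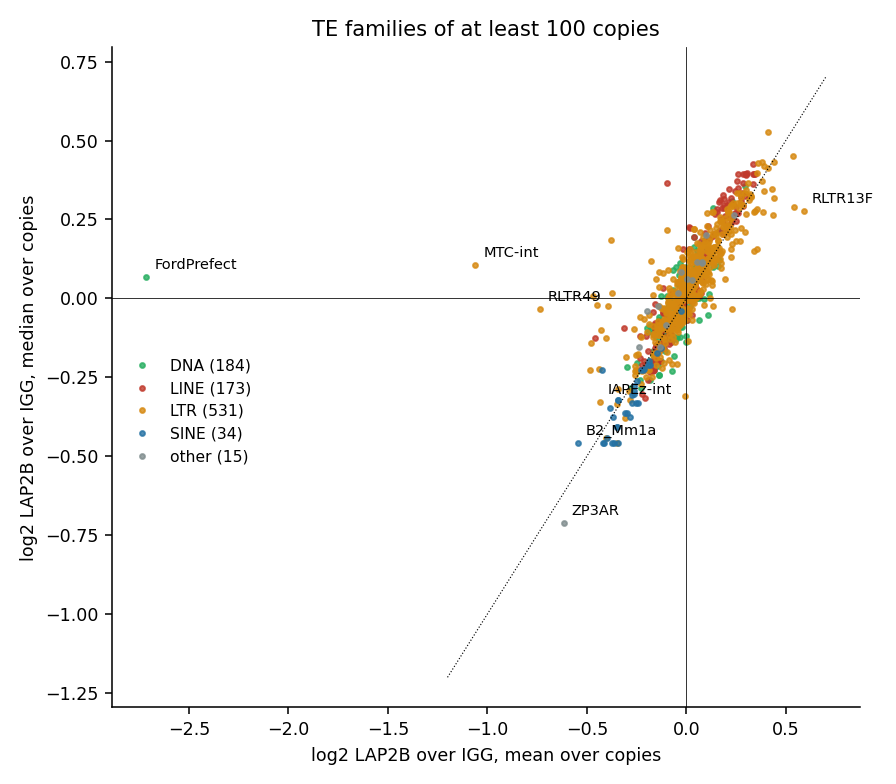
Log2 LAP2B over IGG ratio of TE families of at least 100 copies, by the mean over copies (horizontal) and by the median over copies (vertical), coloured by class. FordPrefect, MTC-int and RLTR49 lie far left of the dotted line of equality at a median near 0, while SINE families lie near the line.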

How the data were processed

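CUT&RUN reads of naive WT mESCs were aligned by the authors with Bowtie2 2.3.5.1 to mm39 and handled with SAMtools 1.10 and deepTools, with duplicates and mitochondrial reads removed and blacklisted regions left out of the gene tables only. The deposited values are signal (coverage) per gene or TE copy, RPKM-scaled and multiplied by a spike-in factor, and a gene's signal is the sum over the 1 kb bins it touches. Whole reads were recovered from the steps of these values (100% within 0.05 of a step), and total depth was 12028659 to 45689196 reads over the gene table.

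Genes were placed with GENCODE M39 on GRCm39, which gave coordinates for 78131 of 78202 (99.9%). The authors name an earlier GENCODE release, so lengths and levels per bin may not match the span they summed for some genes. Whether the bounds agree was not tested for genes that span several bins. Libraries were scaled to their median gene, or to the median TE family after averaging over copies. The 10% of genes with the lowest mean deposited value over 36 libraries, taken before this scaling, were left out. LAP2B and IGG libraries (3 each, grouped by their labels) were compared with limma 3.58.1 on log2(relative value + 0.1) with a trend and Benjamini-Hochberg adjustment over all genes or families, so fold changes of low genes are understated. The main test was checked on simulated data. Contrasts of 1 value per library used a two-sided exact permutation test. Alternatives were edgeR 4.0.16 and DESeq2 1.42.0 on the recovered reads, other scalings, pseudocounts and filters, values per bin, the median over copies and leaving out each library. Named genes were the 10 highest and 10 lowest protein-coding genes of at least 10 kb called without overlap, at least 1 Mb apart, the extremes of each gene list and all members of the lists of 12. TE families were named likewise among those of at least 100 copies, beside a fixed list. Members and lists were chosen with earlier results of these data known. R 4.3.3 and Python 3.11.15 were used.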

Additional observations from a re-analysis of the deposited data

How the results depend on the processing

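The numbers of genes and TE families called depended on the scale. On the deposited spike-in scale 67813 genes were called, 67805 higher and 8 lower, and 1224 TE families, 1224 higher and 0 lower (limma, also 0 lower at an unadjusted p under 0.05). Division by the mean gene gave 9584 genes higher. Division by the mean family gave 1120 families, 1112 higher and 8 lower, and division by the median gene 1129, 1120 higher and 9 lower. With the median over copies 186 families were called, 96 higher and 90 lower. Among genes of at least 10 kb alone, fewer were tested and 17814 were called, 9445 higher and 8369 lower. Leaving out each library in turn gave 23007 to 29758 genes, 12970 to 16063 higher and 9782 to 13695 lower, and 444 to 606 families, 230 to 312 higher and 214 to 295 lower. It gave differences of 0.37 to 0.43 for the L1 over SINE contrast and of 0.78 to 0.95 for the GC contrast. The replicate block gave 15776 genes higher and 13531 lower, and 266 families higher and 253 lower. Deviations of same-numbered libraries had correlations of -0.03, -0.12 and 0.01, so the numbers were not taken as pairs.

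Directions turned in at least 1 setting for 5 of 20 TE results, 1 of 75 genes and 6 of 30 lists. A call was lost with its direction kept for 17 of the TE results and 29 of the genes. On the deposited spike-in scale, relative to the shift of the median family, RLTR13F (0.72), RLTR13E (0.68), RLTR13D6 (0.69) and Lx (0.39) were not called. Nor were ZP3AR (-0.59), B2_Mm1a (-0.53) and B2_Mm2 (-0.41), while FordPrefect kept its call (-2.46, limma adjusted p = 2.64e-10). Over the median copy FordPrefect was at 0.068, MTC-int at 0.11 and RMER16C at 0.0082. Without the 1% of copies with the most IGG signal, a choice that tends to raise a ratio, they were at 0.062, 0.098 and 0.044. MERVL-int was at 0.060 over the median copy. For it and the results that follow the cause was not tested. On the spike-in scale, relative to the shift of the median, MERVL-int was at 0.034 and the list medians were -0.18 for keratin-associated proteins, 0.038 for Zfp genes, 0.0095 for primed epiblast markers and 0.056 for endoderm regulators. Among genes of at least 10 kb the medians were 0.021 for primed epiblast markers and -0.42 for clustered protocadherins. Members of the microRNA list that long had a median of 0.32. The median length of that list was 80 bp, so such long members do not stand for it. The median of clustered protocadherins was also -0.0016 with a pseudocount of 0.5, -0.057 with the mean gene, -0.047 with TMM factors, -0.0085 per bin, -0.10 in edgeR and -0.087 in DESeq2. Leaving out each library gave it -0.073 (without LAP2B replicate 2) to 0.098 (without IGG replicate 2). The same step gave Hoxd1 -0.36 (without LAP2B replicate 2) to 0.033 (without LAP2B replicate 1) and L1MdA_I -0.040 (without IGG replicate 2) to 0.097 (without IGG replicate 1). Depth limits short genes most, since the median gene held 36 to 135 reads in a library.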
